A study of Mus musculus with 2 samples.

Results

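The 7 genes described here code for the proteins of the cytotoxic granule that were listed by name: the granzymes Gzma, Gzmb, Gzmk and Gzmc, the pore former Prf1 (perforin), the granule membrane protein Nkg7 and the granule proteoglycan Srgn (serglycin). The list was set by gene name, with no threshold on a measured value, and all 7 of the 28009 listed genes it names had UMIs (unique molecular identifiers, each of which marks 1 captured RNA molecule) in both libraries. IL-10-producing CD4+ T cells, Foxp3+ cells included, were sorted from IL-10eGFP Foxp3mRFP reporter mice and measured with the 10X droplet technology. There was 1 library from spleen and 1 from small intestine, so the levels below have no replicate check and no p-value was computed. Every mouse carried both reporters and had been given 15 µg of anti-CD3 antibody intraperitoneally on day 0 and day 2, and tissues were taken 4 h after the second dose, at 8 to 16 weeks of age. No untreated cells were measured, the eGFP gate is a reporter of IL-10 and not the protein, and the number of mice pooled is not given in the sources used here. The study isolated both intraepithelial and lamina propria lymphocytes from the small intestine after removing Peyer's patches, and whether both are in this library is not given in the sources used here.

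After the filters on quality and on cells in G2/M, 1278 cells of the small intestine (median 3696 UMIs) and 1469 of the spleen (median 5408 UMIs) were kept. The libraries shared 0 cell barcodes. Nearly all cells carried T cell RNA: Cd3d was found in 98.3% of intestinal and 99.5% of splenic cells, and Cd4 in 73.1% and 67.0%. Other cells that make granzymes were looked for by their markers. All 5 mast cell markers were at 0 in both libraries, and of 7 markers of NK cells and innate lymphoid cells 3 were at 0 in the intestinal and 2 in the splenic library, Ncr1 at 0 in both, with a summed level of 4.57 and 10.5 CPM (UMIs per 1000000 UMIs). The lists for B and plasma cells (14.1 and 6.88 CPM), myeloid cells (0.596 and 7.75) and epithelial cells (12.5 and 31.8, in the spleen nearly all Epcam) were low, and the list for naive or central memory T cells (Ccr7, Lef1, S1pr1 and Tcf7) was at 42.3 and 348 CPM. None of the 5 genes listed for gamma-delta T cells is among the listed genes, so these cells could not be looked for. One finding bore on the CD4+ label: Cd8a, the alpha chain of the CD8 co-receptor, had a UMI in 169 intestinal cells (13.2%). Of these, 81 (47.9%) also had a Cd4 UMI, against 76.9% of intestinal cells without Cd8a, so a Cd8a UMI alone does not contradict the label. However, 121 of the 169 also had a UMI of Cd8b1, the beta chain of CD8. These 121 had Cd4 at 124 CPM, against 445 in intestinal cells without Cd8a. Whether they were CD4+ or CD8 T cells was not tested. Cd8a was found in 0 of 1469 splenic cells, which allows up to 0.204% of cells with a UMI (3 counts). It does not limit cells that express Cd8a below detection. Cd8b1 had UMIs in 105 splenic cells. The intestinal cells with Cd8a also had less Il10, 307 against 653 CPM, and results are given below with and without them.

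Cytotoxic T cells and NK cells kill by releasing granules onto the target cell. Perforin opens the target's membrane, and granzymes, a family of serine proteases, enter and cleave proteins inside; granzyme B cuts after aspartate and triggers apoptosis, whereas granzymes A and K cut after basic residues. Serglycin holds these proteins in the granule, and Nkg7 sits in its membrane and takes part in its release. Helper T cells usually hold little of this machinery, but CD4+ T cells of the gut epithelium and type 1 regulatory cells are known to express granzymes. Ccl5, the chemokine by which cells are divided below, is itself stored and secreted by cytotoxic lymphocytes.

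Gzma and Gzmk lie next to each other on chromosome 13 (GRCm38, GENCODE vM21: Gzma at 113093825-113100981 and Gzmk at 113171608-113225908, both on the minus strand), 70626 bases apart. Gzmb (56258838-56262260) and Gzmc (56231441-56234656), both on the minus strand, are part of a second cluster on chromosome 14 that also holds Gzmd, Gzme, Gzmf, Gzmg and Gzmn. Prf1 (61297833-61304680, plus strand) and Srgn (62493833-62527451, minus strand) are on chromosome 10, and Nkg7 (43437073-43438249, plus strand) is on chromosome 7. Upstream sequence is shown for Gzma, Gzmb, Prf1 and Nkg7, which were all higher by tissue and by Ccl5 class in the small intestine. Gzmk was as well but is not shown. Each sequence shown holds the letters described next, and that of Gzmk does not. The sequence comes from RefSeq (GRCm38.p6), is written 5′ to 3′ on the gene's strand and ends before the first annotated transcript start in the window. Capitals mark the letters TGTGGT, a core to which Runx factors can bind, or ACCACA, the same letters on the other strand.
Gzma, chr13:113100982-113101231, minus strand: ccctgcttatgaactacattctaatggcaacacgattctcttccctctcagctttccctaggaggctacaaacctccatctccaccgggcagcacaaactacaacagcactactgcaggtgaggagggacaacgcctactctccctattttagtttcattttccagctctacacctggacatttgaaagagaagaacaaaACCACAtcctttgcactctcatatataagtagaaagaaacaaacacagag
Gzmb, chr14:56262335-56262584, minus strand: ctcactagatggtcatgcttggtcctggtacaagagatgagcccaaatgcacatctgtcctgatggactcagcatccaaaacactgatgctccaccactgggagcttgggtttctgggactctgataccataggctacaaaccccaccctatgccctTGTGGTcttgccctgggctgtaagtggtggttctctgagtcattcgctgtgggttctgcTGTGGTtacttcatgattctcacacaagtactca
Prf1, chr10:61297586-61297750, plus strand: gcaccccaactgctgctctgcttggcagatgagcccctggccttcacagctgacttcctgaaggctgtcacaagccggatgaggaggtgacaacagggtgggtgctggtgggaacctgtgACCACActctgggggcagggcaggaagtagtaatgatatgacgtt
Nkg7, chr7:43436888-43437072, plus strand: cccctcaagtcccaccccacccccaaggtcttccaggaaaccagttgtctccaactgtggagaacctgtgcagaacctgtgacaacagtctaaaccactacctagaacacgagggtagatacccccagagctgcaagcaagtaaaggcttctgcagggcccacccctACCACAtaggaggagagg
Both Gzma and Gzmb had the letters in 250 bases, as 14.0% of all 32851 RefSeq windows of that length did. Prf1 had them in 165 bases, as 9.52% of windows did, and Nkg7 in 185 bases, as 10.7% did. The same search found them before Gzmc and before 1 of the 2 Srgn starts and not before Gzmk. The motif was chosen after the sequences had been seen, and a match is only a run of letters.

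The first comparison asked how the granule genes differed between the tissues. Gzma was the granule gene that differed most. It had 129309 UMIs, or 25688 CPM (95% interval 25548 to 25829), in the small intestine and 474 UMIs, or 51.7 CPM (95% interval 47.2 to 56.6), in the spleen, a ratio of 497-fold (95% interval 454 to 545). It was the third most abundant of 13499 genes with a UMI in the intestinal library, with 2.57% of all UMIs, and ranked 2662 of 13683 in the spleen. Gzmb was at 12558 CPM (95% interval 12460.2 to 12656) in the small intestine and at 1041 CPM (95% interval 1019.9 to 1062) in the spleen, 12.1-fold (95% interval 11.8 to 12.3) higher. Thus both tissues held Gzmb transcripts in number, whereas Gzma transcripts were nearly all intestinal. Gzmk was 9.69-fold (95% interval 8.53 to 11.0) higher in the small intestine (302 against 31.2 CPM, log2 ratio 3.28), and its log2 ratio was 2.68 as a mean of CPM over cells. Gzmc had 21 and 19 UMIs, too few to compare under the minimum of 50.

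Among the genes of delivery and storage, Prf1 and Nkg7 were higher in the small intestine and Srgn was not. Prf1 was 8.62-fold (95% interval 5.78 to 13.2) higher in the small intestine, but from few transcripts in either tissue: 142 UMIs, or 28.2 CPM (95% interval 23.8 to 33.2), and 30 UMIs, or 3.27 CPM (95% interval 2.21 to 4.67). Nkg7 was 3.15-fold (95% interval 3.08 to 3.23) higher, at 3517 CPM against 1115. Srgn stood apart from the others: it was at 2412 CPM (95% interval 2369 to 2455) in the small intestine and 2760.2 CPM (95% interval 2726 to 2794) in the spleen, a log2 ratio of -0.19 (95% interval -0.23 to -0.16). With totals that left out Ccl5 and the granule genes, the Srgn log2 ratio was -0.06. Of the 6 granule genes with at least 50 UMIs over both libraries, 5 were at least 2-fold higher in the small intestine with an interval above 1, against 10.4% of the 9034 genes that reached 50 UMIs. Their median log2 ratio was 3.19, that of all these genes -0.02. Levels are not divided by transcript length and are compared between groups, not between genes. Without the 169 intestinal cells that had a Cd8a UMI, Gzma was still at 21719 CPM, Gzmb at 11576, Gzmk at 249, Prf1 at 21.1 and Nkg7 at 3416. Intervals here cover counting error only, and with 1 library per tissue the tissue and the library cannot be told apart.

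A level over all cells can rise because more cells hold a gene or because each holds more of it, and single cells separate these. For this, 2089 UMIs were drawn at random from each cell that had as many, which left 1150 intestinal and 1439 splenic cells. At this equal depth Gzma was found in 92.9% (95% interval 91.2 to 94.3) of intestinal and 3.06% (95% interval 2.23 to 4.08) of splenic cells, and at full depth in 96.0% and 5.65%. The amount per cell differed as well. Intestinal cells with a Gzma UMI held a median of 67 (quartiles 15.5 to 156, highest 749), and splenic ones a median of 1 (quartiles 1 to 5, highest 70). In the spleen, 50.6% of the cells with Gzma had a single UMI.

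Gzmb was found at equal depth in 96.3% (95% interval 95 to 97.3) of intestinal and 28.2% (95% interval 25.9 to 30.6) of splenic cells, with a median of 36 and 6 UMIs per positive cell as deposited. Splenic Gzmb was unevenly spread, since the 10% of cells richest in it held 79.2% of its UMIs, against 33.8% in the small intestine. Nkg7 was found in 91.5% and 40.7% of cells, Gzmk in 37.0% and 5.0%, Prf1 in 5.13% and 0.625%, and Gzmc in 0.783% and 0.347%. Srgn was in nearly every cell of both tissues, 95.7% and 95.3%. At full depth these shares were 97.3% and 38.2% for Gzmb, 93.0% and 51.3% for Nkg7, 49.9% and 8.24% for Gzmk, 9.39% and 1.43% for Prf1, 1.64% and 1.29% for Gzmc, and 96.4% and 98.3% for Srgn.

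**Figure D1:**
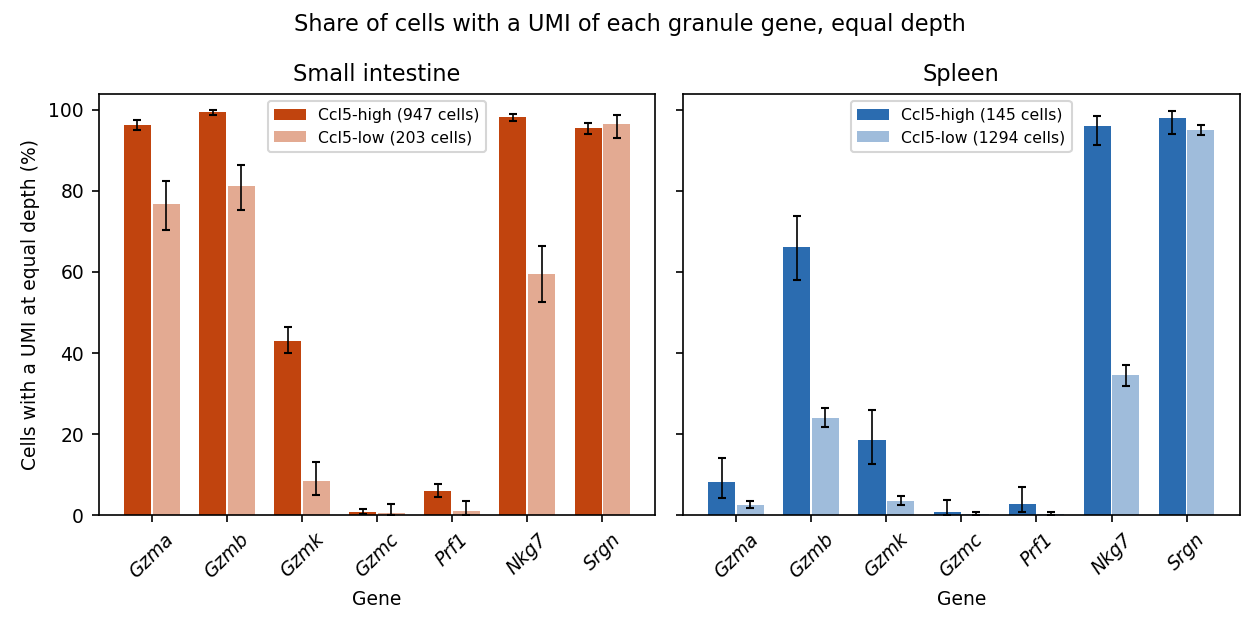
Share of cells with at least 1 UMI of each granule gene (%, bars start at 0) after every cell was thinned to 2089 UMIs, by Ccl5 class, with small intestine on the left and spleen on the right; error bars are exact binomial 95% intervals. Srgn was in 95.1% to 97.9% of cells in all 4 groups, Gzma in 96.3% and 76.8% of the intestinal and 8.28% and 2.47% of the splenic Ccl5-high and Ccl5-low cells, and Nkg7 was more often found in the Ccl5-high cells of both tissues.

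RNA set free by broken cells gives UMIs in cells that do not express a gene. In the spleen, the nearest to such cells were the 177 that had UMIs of at least 2 of the naive T cell genes Ccr7, Lef1 and S1pr1 and none of Ccl5 (median 5186 UMIs per cell). At equal depth Gzma was in 0.565% (95% interval 0.0143 to 3.11) of them, Gzmk in 1.69% (95% interval 0.351 to 4.87), Prf1 in 1.13%, Gzmb in 13.0% (95% interval 8.42 to 18.9), Nkg7 in 18.6% and Srgn in 84.7%. Over all splenic cells the share of Prf1 was 0.625%, but its share here rests on so few cells that these shares cannot be ordered. At full depth 2 of the 177 had 1 Prf1 UMI and 1 had 2 to 5, and Gzmc had 1 UMI in them. Gzma, Gzmb, Gzmk and Nkg7 had higher shares over all cells than in these, although for Gzma and Gzmk the intervals overlap. The 177 cells were not free of expressing cells: 12 had 6 to 20 Gzmb UMIs and 3 had 21 to 100, and Nkg7 was spread alike. Gzmk had 6 to 20 UMIs in 1 of them. Their shares of Gzmb, Nkg7, Gzmk and Prf1 are thus no measure of free RNA alone. No intestinal cell met the same definition (0 of 1278), so a background could not be read there.

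Cells were then divided by the share of their UMIs that came from Ccl5, with the cut at 1% for intestinal and 0.5% for splenic cells. Cells at or above it, here called Ccl5-high, were 1052 of 1278 (82.3%) in the small intestine and 150 of 1469 (10.2%) in the spleen. The division is a range and not a cell type; 32 intestinal and 17 splenic cells lay within 20% of the cut. Ccl5 itself took 5.96% and 3.01% of the UMIs of Ccl5-high cells. In the small intestine Gzma was at 29501 CPM (95% interval 29334 to 29668) in Ccl5-high and 9298 CPM (95% interval 9105 to 9494) in Ccl5-low cells, 3.17-fold (95% interval 3.11 to 3.24) higher. Gzmb was at 14475 and 4316 CPM (3.35-fold), Gzmk at 353 and 84.2 (4.19-fold), Nkg7 at 4056 and 1200.1 (3.38-fold), and Prf1 at 33.1 and 7.37 (4.49-fold, from 135 and 7 UMIs). Gzmc had 20 UMIs in Ccl5-high and 1 in Ccl5-low cells, under the minimum. Srgn, by contrast, was close to level, at 2356 and 2649.7 CPM. Ccl5-high cells without a Cd8a UMI had 25283 CPM of Gzma, 13662 of Gzmb, 297 of Gzmk and 25 of Prf1. Counted over all cells, 5 of 6 granule genes were at least 2-fold higher in Ccl5-high cells, against 2.47% of the 6869 genes tested, and their median log2 ratio was 1.75 against -0.15 over all. The genes and the Ccl5 classes were chosen with earlier results of these data known. The counts by Ccl5 class, here and in the spleen, are therefore descriptions only. With the cut at 2% these ratios became smaller, 1.41 for Gzmk and 1.55 for Prf1 on the log2 scale, from 2.07 and 2.17.

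Intestinal cells low in Ccl5 were of mixed kind in their granzymes. Gzma was found in 86.3% of them at full depth, but most held little: 22.1% had 1 UMI and 31.0% had 2 to 5, while 11.9% had over 100. The 10% of cells richest in Gzma held 71.0% of its UMIs, and the median over cells of their CPM was 761, far below the 9298 of the summed counts. In Ccl5-high cells 43.2% had over 100 Gzma UMIs. Gzma had 2.15 UMIs per Gzmb UMI in Ccl5-low and 2.04 in Ccl5-high cells, and Nkg7 0.278 and 0.280. These are ratios of sums, to which rich cells add most: over single cells with both granzymes, the median log2 ratio of Gzma to Gzmb was 0.00 in Ccl5-low and 1.03 in Ccl5-high cells. The Ccl5-low cells had more RNA of the 4 naive or central memory T cell markers (129 against 22.0 CPM, each of the 4 higher) and of the 5 B and plasma cell markers in the table (40.0 against 8.08 CPM, Jchain at 0 in both). The part of these cells, or of free RNA, in the low granzyme counts was not tested.

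In the spleen Nkg7, Gzmb, Gzmk and Gzma were higher in Ccl5-high cells. Nkg7 was at 4607 CPM (95% interval 4459 to 4757) in Ccl5-high and 779.7 CPM (95% interval 761 to 799) in Ccl5-low cells, 5.91-fold (95% interval 5.67 to 6.15) higher, and was found at equal depth in 95.9% and 34.5% of them. Gzmb was at 3586 and 796 CPM (4.50-fold) and was in 66.2% and 24.0% of cells. Gzmk was at 146 and 20.2 CPM (7.21-fold), and Gzma at 198 and 37.7 (5.26-fold). Gzma was still in few splenic Ccl5-high cells, 8.28% (95% interval 4.35 to 14.0), and 1 cell held 70 of its 159 UMIs. Without the cell richest in Gzma in each class, the log2 ratio was 1.87 in place of 2.39. Prf1 had 15 UMIs in the 150 Ccl5-high and 15 in the 1319 Ccl5-low cells, under the minimum of 50 (10.4-fold, 95% interval 4.74 to 22.9). Gzmc had 3 and 16 UMIs, and Srgn was at 2614 and 2774 CPM. The 7 markers of NK cells and innate lymphoid cells summed to 28.7 CPM in Ccl5-high and 8.73 in Ccl5-low splenic cells, with Ncr1 and Klra8 at 0 in both, and those of naive or central memory T cells to 89.7 and 373; their part in these differences was not tested. Of 5 granule genes with enough UMIs 4 were at least 2-fold higher, against 2.46% of 8118 genes, with a median log2 ratio of 2.39 against -0.05.

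**Figure D2:**
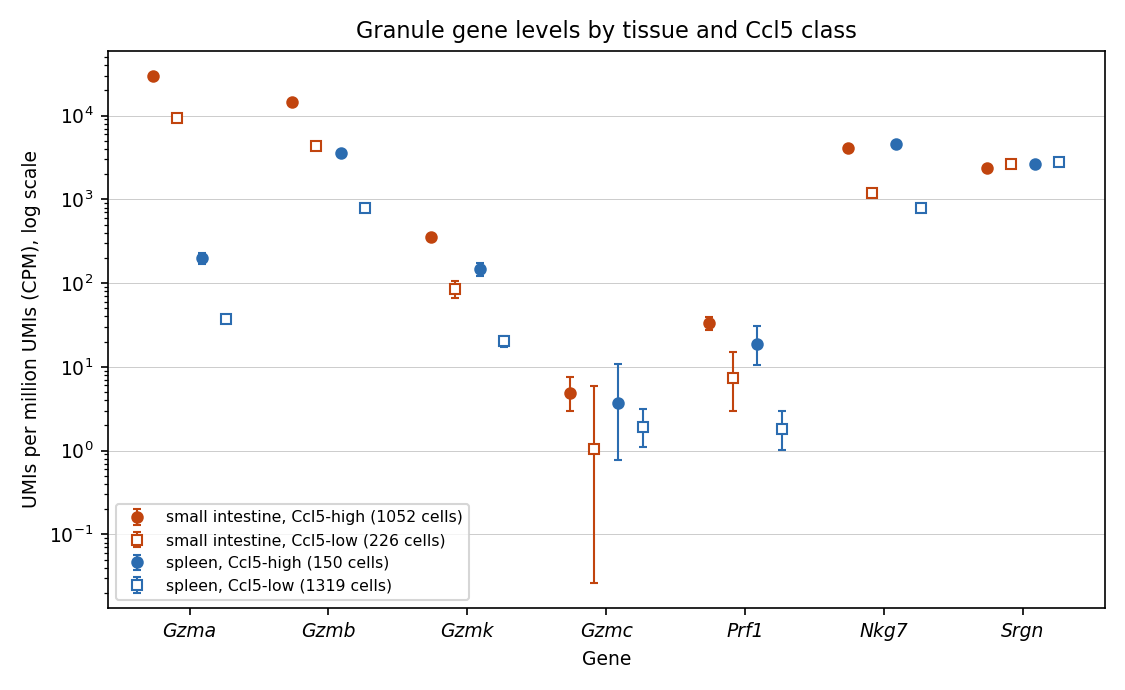
Level of each granule gene in CPM (log axis) in Ccl5-high cells (filled circles) and Ccl5-low cells (open squares) of the small intestine (orange) and spleen (blue); bars are exact Poisson 95% intervals, for counting error only. Nkg7 of splenic Ccl5-high cells (4607 CPM) lay beside that of intestinal ones (4056), whereas their Gzma (198 CPM) lay far below (29501).

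Comparing Ccl5-high cells of the tissues with each other removed the difference in how many such cells there were. It did not match the cells for Ccl5, since the cut was 1% for intestinal and 0.5% for splenic cells. The median Ccl5 share of Ccl5-high cells was 5.81% in intestinal and 2.33% in splenic ones. The part of this unlike Ccl5 content in the ratios between the tissues was not tested. Gzma still differed widely, 149-fold (95% interval 127 to 175) higher in the small intestine. Gzmb was 4.04-fold (95% interval 3.89 to 4.19) higher, down from 12.1-fold over all cells, and Gzmk 2.42-fold (95% interval 2.01 to 2.95), down from 9.69-fold. Prf1 was 1.77-fold (95% interval 1.04 to 3.25) higher, but 53 of its 135 UMIs came from cells with a Cd8a UMI, and without these the ratio was 1.34-fold (95% interval 0.767 to 2.5), from 82 and 15 UMIs. Without the same cells Gzma was 127.6-fold, Gzmb 3.81-fold and Gzmk 2.04-fold higher. Nkg7, however, was slightly lower in the small intestine, at 4056 against 4607 CPM with a log2 ratio of -0.18 (95% interval -0.24 to -0.13), and Srgn was at 2356 against 2614. Among Ccl5-low cells the order was similar, with log2 ratios of small intestine over spleen of 7.95 for Gzma, 2.44 for Gzmb, 2.06 for Gzmk and 0.62 for Nkg7.

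Along the Ccl5 share, Gzma and Gzmb of the small intestine were lowest in the cells with least Ccl5 and varied less above the cut, while Nkg7 of the spleen increased over the whole range. In the small intestine Gzma was at 6309 CPM in the 182 cells with some Ccl5 but under 0.5 times the cut, 23002 from there to the cut, 25394 at 1 to 2 times the cut, 34445 at 2 to 4 times, and 28576 above that. Gzmb took the values 3344, 8804, 10897, 15456 and 14621 CPM over the same groups. In CPM both were thus highest at 2 to 4 times the cut and lower in the 785 cells richest in Ccl5. The totals include Ccl5, which took 3.03% of UMIs at 2 to 4 times the cut and 7.33% above that. This lowers the CPM of other genes more in the richest cells, and its part in the fall of Gzma and Gzmb was not tested. In the spleen Nkg7 was higher at every step, from 555 CPM in the 815 cells without Ccl5 to 1043, 2153, 3418, 4107 and 5514. Splenic Gzmb took no such order: 632, 883, 4218, 2334, 5130.2 and 3347 CPM. The 3 middle splenic groups had 27, 35 and 38 cells. Srgn stayed between 2466 and 2986 CPM in the spleen.

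**Figure D3:**
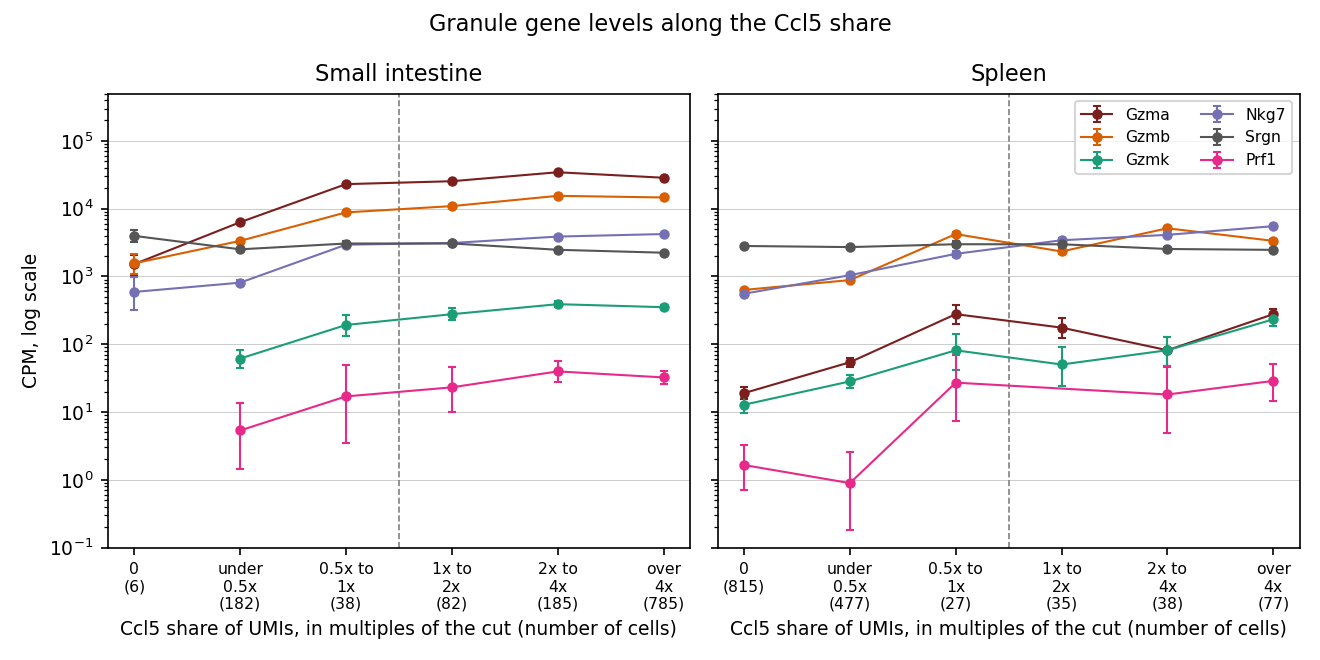
Level of 6 granule genes in CPM (log axis) in cells grouped by their Ccl5 share, given in multiples of the cut (1% of UMIs in small intestine, 0.5% in spleen), with the number of cells in brackets, the cut as a dashed line and exact Poisson 95% intervals; values from under 3 UMIs are left out. In the small intestine Gzma and Gzmb lay within 23002 to 34445 and 8804 to 15456 CPM from 0.5 times the cut on, and Srgn of the spleen within 2466 to 2986 CPM throughout.

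Single cells of the small intestine mostly had UMIs of both of the abundant granzymes. Free RNA can add such UMIs, and no background could be read in this tissue. At equal depth 90.3% of them had UMIs of Gzma and Gzmb, where the product of the 2 shares is 89.4%, so co-detection was at 1.01 times that product. With both genes in nearly all cells this ratio could only lie near 1. It cannot show whether the 2 go together and is not to be set against the splenic ratios. In the spleen 1.60% of cells held both (23 cells), 1.85 times the product, and Gzmb and Nkg7 were together in 19.6%, 1.71 times the product. Within splenic Ccl5-high cells the latter ratio fell to 1.03, since 99% of cells with Gzmb and 89.8% of those without it had Nkg7. With Nkg7 in nearly all of these cells, this ratio too could only lie near 1. Of intestinal cells with Gzmk 99.5% also had Gzmb, which was in 96.3% of all cells. In the spleen that share was 36.1%, with Gzmb in 28.2% of all cells, and among Ccl5-high cells the pair was at 0.839 times the product of their shares.

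Counted over all 7 genes at equal depth, intestinal cells most often held 4 (49.4%) or 5 (34.6%) of them, and splenic cells 1 (46.3%) or 2 (27.4%). Splenic Ccl5-high cells lay between, most with 3 (55.9%), and intestinal Ccl5-low cells were spread over 2 (18.2%), 3 (32%) and 4 (37.4%). Of the 4 granzymes alone, 67.3% of splenic and 1.13% of intestinal cells had none. Among splenic Ccl5-high cells 58.6% had 1 granzyme and 14.5% had 2, and among intestinal ones 55.2% had 2 and 41.8% had 3.

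The balance of Gzma and Gzmb varied from cell to cell. In the 1198 intestinal cells with both, the median log2 ratio of Gzma to Gzmb UMIs was 0.94 (quartiles -0.42 to 1.81), and 68.8% had more Gzma. Among Ccl5-low cells the median was 0.00, with quartiles of -2.32 and 1.94. The 48 splenic cells with both had the reverse balance, a median of -2.70, and 8.33% of them had more Gzma. Thus Gzmb UMIs without Gzma UMIs were the usual state of a splenic cell with a granzyme, while intestinal cells mostly had UMIs of both.

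**Figure D4:**
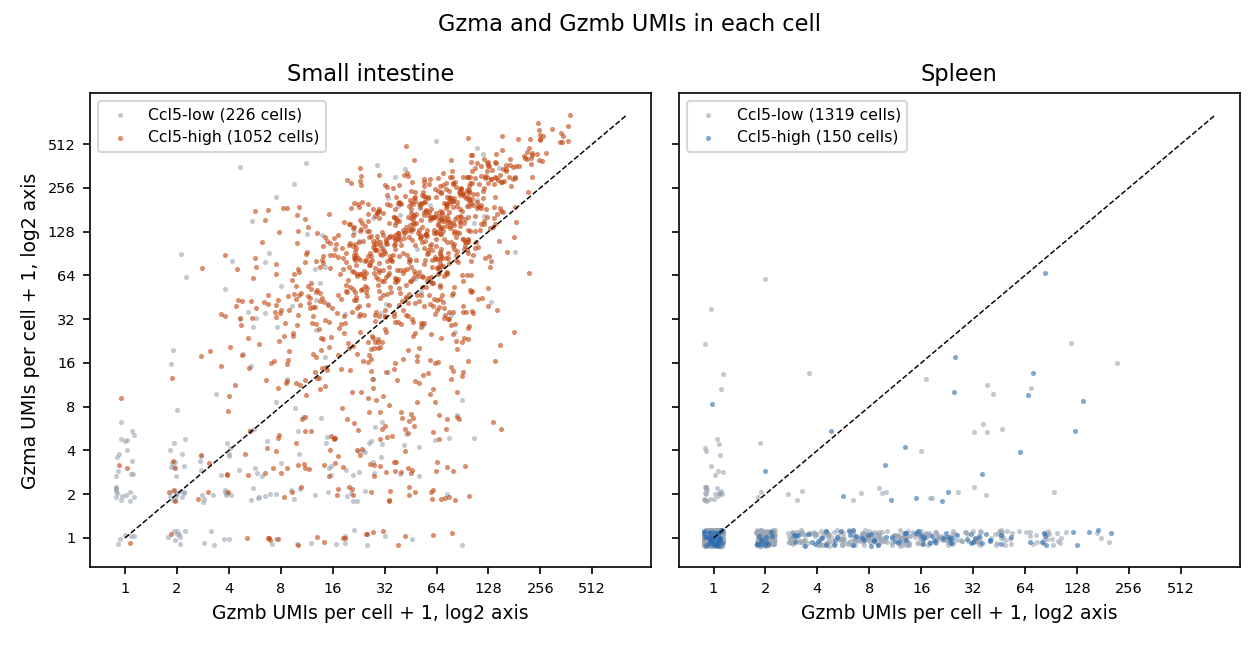
Gzma against Gzmb UMIs in each kept cell, as deposited, with 1 added and a small random shift (both axes log2), for small intestine (left) and spleen (right); coloured points are Ccl5-high cells, grey points Ccl5-low cells, and the dashed line marks equal numbers. Of the intestinal Ccl5-high cells with both, 73.0% lie above the line, and all but 48 of the splenic cells with Gzmb lie on the row without Gzma.

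Perforin transcripts were scarce. A Prf1 UMI was found in 120 intestinal cells, and 87.5% of these had only 1. All 120 also had a granzyme UMI, as did 99.6% of all intestinal cells. Read the other way, 9.43% of intestinal and 2.79% of splenic cells with a granzyme UMI had one of Prf1. In the spleen 18 of 21 cells with Prf1 had a granzyme, against 43.9% of all cells. At 1 UMI per positive cell, a cell without Prf1 UMIs may still hold its RNA.

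The next comparison was between intestinal cells with a Cd8a UMI and those without. The 169 cells with Cd8a had less Cd4, 159.7 against 445 CPM, and 167 of them were Ccl5-high. Their NK and innate lymphoid markers summed to 11.1 CPM against 3.32, with Ncr1, Klra8 and Tyrobp at 0 in both, and the part of such cells was not tested. Gzma was in all of them, at 46268 CPM (95% interval 45802 to 46738) against 21719 CPM (95% interval 21579 to 21860.5) in the 1109 others, 2.13-fold (95% interval 2.10 to 2.16) higher. Prf1 was 3.09-fold (95% interval 2.16 to 4.39) higher (65.1 against 21.1 CPM, 53 and 89 UMIs), and Gzmk 2.33-fold (95% interval 2.09 to 2.60) higher. Gzmb was 1.52-fold higher and Nkg7 1.18-fold, both short of 2-fold. Gzmc had 3 and 18 UMIs. Srgn went the other way, with 1497 CPM (95% interval 1414 to 1583) against 2588 CPM (95% interval 2539.9 to 2637), a log2 ratio of -0.79. In total 3 of 6 granule genes were at least 2-fold higher, against 1.53% of 6869 genes, with a median log2 ratio of 0.85 against -0.12 over all. Among Ccl5-high cells only, the log2 ratios were 0.88 for Gzma, 0.97 for Gzmk and 1.39 for Prf1, and 0.01 for Nkg7. Gzma and Gzmk then fell just short of 2-fold, and Prf1 stayed past it. No share over all genes is given for this last comparison.

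Cd8b1 codes for the beta chain, which pairs with the alpha chain on conventional CD8 T cells, while alpha chains alone mark activated gut lymphocytes. The 121 cells with both chains had 77.3 CPM (95% interval 57.4 to 102) of Prf1, and the 48 with Cd8a only had 18.0 CPM (95% interval 3.71 to 52.6), from 50 and 3 UMIs. The 1074 cells with neither had 21.1 CPM (95% interval 16.9 to 26.1). Prf1 was thus highest in the cells with both chains (4.29-fold (95% interval 1.39 to 21.5) above those with Cd8a only), and the cells with Cd8a only lay within the interval of those with neither. Gzma was at 48168, 38896 and 21724 CPM in the 3 groups, and Gzmk at 631, 384 and 252, so both were higher also in the cells with Cd8a only. All 120 cells with both chains and both granzymes had more Gzma than Gzmb UMIs. So did 95.7% of the 47 such cells with Cd8a only, against 63.9% of the cells with neither chain. The cells with both chains were deeper, at a median of 4452 UMIs against 3198 with Cd8a only, and a shallow cell can miss its Cd8b1.

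**Figure D5:**
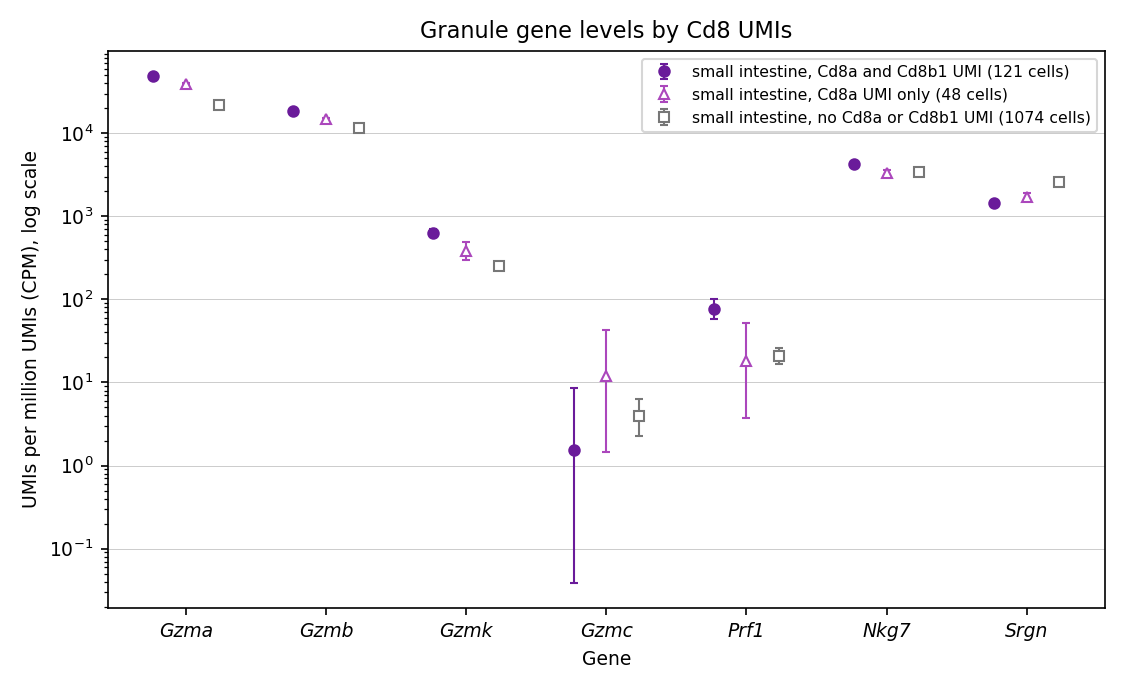
Level of each granule gene in CPM (log axis) in intestinal cells with UMIs of both Cd8a and Cd8b1 (circles), of Cd8a only (triangles) and of neither (squares), with exact Poisson 95% intervals. Prf1 of the first group (77.3 CPM) lies above that of the other two (18.0 and 21.1), Gzma and Gzmk step down from left to right, and Srgn steps up.

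Regulatory T cells, marked by Foxp3, can also carry granzyme B. In the spleen Gzmb was at 1399 CPM (95% interval 1351 to 1448) in the 280 cells with a Foxp3 UMI and 919 CPM (95% interval 896 to 942) in the others. This is 1.52-fold higher and short of 2-fold. Gzmk was nearly absent from the Foxp3 cells (5 UMIs, 2.15 against 41.1 CPM), and Nkg7 was lower but short of 2-fold (653 against 1272). At equal depth Gzmb was in 39.7% of the Foxp3 cells and 25.5% of the others. In the small intestine only 28 cells had a Foxp3 UMI. They held less Gzma (5498 against 26306 CPM, a median over cells of 746 against 20531). Gzmk (73.7 against 309 CPM, from 11 and 1511 UMIs) and Nkg7 (1306 against 3584) were lower in them too. They also held less Gzmb (7018 against 12727). Even so, Gzmb was in 25 of 27 of them at equal depth. The Foxp3 cells were deeper in both tissues. Their median was 7686 UMIs against 5051 in the spleen and 4708.5 against 3687 in the small intestine.

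Il10 itself had a UMI in 72.5% of intestinal and 64.9% of splenic cells, although all were sorted by its reporter. Splenic cells with an Il10 UMI had more of the granule genes: Gzmb 1168 against 721 CPM, Nkg7 1279 against 701 and Gzma 60.5 against 29.6. In the small intestine they differed little, with 12845 against 11645 CPM for Gzmb and 25059.5 against 27690.4 for Gzma. The cells with Il10 were also deeper, at a median of 6067 against 4460 UMIs in the spleen and 3840.5 against 3307 in the small intestine. Cycling cells were taken as those with a Mki67 UMI among the kept cells. The G2/M filter had already taken out 61 intestinal and 179 splenic cells, so many dividing cells are not among them. The Mki67 cells had less Nkg7 in the small intestine (1955 against 3609 CPM), against 1096 and 1119.8 in the spleen. There they had less Gzma (17.3 against 60.8 CPM, log2 ratio -1.81) and Gzmk was at 17.9 against 34.7. These splenic cells were deeper, at a median of 9172 against 5125 UMIs, as were the intestinal Mki67 cells (4783 against 3673).

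Around these genes the rest of the granule machinery was uneven. Of the 6 other granzymes on the list, Gzmd, Gzme, Gzmf, Gzmg and Gzmn had 0 UMIs in both libraries, and Gzmm had 11 intestinal and 5 splenic UMIs. Gzmb was thus the only granzyme of the chromosome 14 cluster with more than 21 UMIs in a library. Reads that match several of its closely related genes may not have been counted, so the low values of Gzmc to Gzmg are uncertain. Ctsw, a cathepsin of cytotoxic cells, was the 1 of 8 granule protease and membrane genes to be higher in the small intestine (166 against 34.6 CPM), a share near the 10.4% of all genes, and it was also higher in Ccl5-high cells of both tissues (log2 ratio 1.97 and 2.33) and in cells with Cd8a (1.05). Ctsc, which activates granzymes by trimming them, was at 136 and 105 CPM in the tissues. In the spleen the lysosomal protease Ctsd was higher in Ccl5-high cells as well (log2 ratio 1.13). None of the 8 docking and fusion genes was at least 2-fold higher in the small intestine. Rab27a was at 50.3 against 62.8 CPM and Unc13d at 35.8 against 42.9. Lyst was the 1 of 8 that was lower (2.78 against 8.62), as were 1225 of all 9034 genes tested. In splenic Ccl5-high cells Lyst was the 1 of 8 that was higher (22.4 against 7.30 CPM), against 2.46% of all genes tested. In the small intestine none of 7 tested was at least 2-fold higher or lower by Ccl5 class or by Cd8a. Of all 6869 genes tested there, 2.47% and 1.53% were higher, and 320 and 335 genes were lower.

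All 4 other killing ligands and cytokines were at least 2-fold higher in the small intestine, against 10.4% of all genes tested: Fasl, the ligand of the death receptor Fas, at 75.7 against 10.0 CPM, Ifng at 354 against 60.1, Tnf at 26.4 against 6.55 and Tnfsf10 at 30.0 against 7.75. By Ccl5 class, 1 of the 4 was higher in the small intestine, Tnfsf10 (log2 ratio 1.30), against 2.47% of all genes tested. Fasl (0.87), Ifng (0.61) and Tnf (0.23) fell short of 2-fold there. In the spleen 2 of the 4 were higher, Fasl (2.81) and Ifng (2.38), against 2.46% of all genes. In intestinal cells with a Cd8a UMI, however, 2 of the 4, Ifng (184 against 387 CPM) and Tnf (8.60 against 29.9), were at least 2-fold lower, opposite to Gzma, Gzmk and Prf1. Of all 6869 genes tested, 335 were lower in those cells. Of the transcription factors of the cytotoxic programme, 5 of 7 tested were higher in the small intestine (10.4% of all genes), among them Id2 (2138 against 453 CPM) and Runx3 (249 against 76.7). Prdm1 (86.8 against 71.5 CPM) and Tbx21, which codes for T-bet (31.4 against 39.9 CPM, log2 ratio -0.35), were not. Tbx21 was instead the 1 of 7 that was higher in intestinal Ccl5-high cells (37.2 against 6.32 CPM), where 2.47% of all genes were. In the spleen it was at 47.3 and 39.2, and Id2 (log2 ratio 2.10) and Zeb2 (2.30) were higher instead, against 2.46% of all genes. By Cd8a, the 1 of 7 past 2-fold was Bhlhe40, which was lower (-1.02), and of all 6869 genes tested 335 were lower and 105 higher. Eomes, a relative of T-bet, had 2 UMIs in intestinal and 17 in splenic cells. All 3 granzyme inhibitors tested were higher in the small intestine, against 10.4% of all genes, with Serpinb9, which blocks granzyme B, at 337 against 54.6 CPM and Serpinb6b at 1131 against 179.8. Serpinb9 was higher in Ccl5-high cells of both tissues too (log2 ratio 1.03 and 2.35), Serpinb6b had ratios of 0.98 and 1.97, and none of the inhibitors differed by 2-fold with Cd8a.

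The genes whose level followed each granule gene most closely over cells were found by Pearson correlation of log2(UMIs per 10000 + 1), among 4103 genes of the intestinal and 5324 of the spleen library that had a UMI in at least 10% of cells. In the small intestine Gzma was most like Gzmb (r = 0.559, 1278 cells), Gzmb like Ccl5 (0.601), Nkg7 like Ccl5 (0.676) and Gzmk like Gzma (0.359). Srgn had other neighbours, Cd53 (0.514), Tnfrsf4 (0.442) and Ubb (0.386), and its coefficient with Gzma was -0.038. In the spleen (1469 cells) Gzmb was most like Nkg7 (0.510), Cxcr6 (0.467) and Serpinb6b (0.439), Nkg7 like Cxcr6 (0.571), and Srgn like Tnfrsf4 (0.562), Lag3 (0.455) and Ldha (0.447). Cells of a library share its preparation and differ in depth, and these coefficients are descriptions. Those with Ccl5 come from the same cells as the division by Ccl5 above and are no separate result. Gzmc and Prf1, and in the spleen Gzma and Gzmk, were in under 10% of cells and were not ranked.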

How the data were processed

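IL-10 eGFP+ CD4+ T cells of spleen and small intestine were sequenced as 1 droplet library each. The authors demultiplexed and trimmed the reads, aligned them to Mm10 with CellRanger and counted UMIs, and deposited raw UMI counts per gene and cell (28009 listed genes; no length or depth normalization). From these, cells more than 3 median absolute deviations below the median in log UMIs or log genes, or above it in mitochondrial share, were removed (135 of 1474 intestinal and 90 of 1738 splenic barcodes), then cells called G2/M by cyclone in scran 1.30.0 (61 and 179). Scrublet (scanpy 1.11.5) marked 4 cells per library as doublets, of which the 3 that passed the filters were kept; with so few calls it is not clear that it worked.

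The kept cells held 5033783 and 9161899 UMIs, so that 3 UMIs correspond to 0.596 and 0.327 CPM. Summed UMIs are given in CPM with exact Poisson intervals, ratios with exact conditional binomial (Clopper-Pearson) intervals and shares with exact binomial intervals, each at 95% and covering counting error only, with scipy 1.17.1 in Python 3.11.15. A gene was called higher or lower at 2-fold with the interval to 1 side of no change, given at least 50 UMIs over both groups. Cells of 1 library are not replicates, so no p-value was computed and nothing could be tested over samples. For shares and co-detection, each cell was thinned to 2089 UMIs (the 10th percentile of intestinal cells), shallower cells being left out. The ratio calculation was tested on simulated data.

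The 7 genes were named in every comparison, with genes of 6 fixed lists (other granzymes, processing, docking, ligands, transcription factors, inhibitors) and, per gene, the 3 genes of highest correlation of at least 0.3. Further genes named are markers of cell types or genes that set a class of cells. The genes, lists and classes were chosen with earlier results of these data known. Alternatives were the cell filters, doublet removal, equal depth, totals, weighting of cells, the Ccl5 cut and leaving out cells with Foxp3 or Cd8 UMIs. The alternatives without the cell richest in a gene and with Ccl5-high cells only were added after seeing the data, and so was the definition of the cells for the free-RNA background; 1 gene of the marker list for naive cells is not reported here. Gene positions are from GENCODE vM21 and upstream sequence from RefSeq, both on GRCm38.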

Additional observations from a re-analysis of the deposited data

Results flagged for a closer look

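In 3 comparisons a granule gene was higher in cells with a UMI of another gene in one tissue and lower in the other, with both counting intervals off 0. With 1 library per tissue, none of these differences between the tissues was tested. Gzma in cells with an Il10 UMI had a log2 ratio to cells without one of -0.14 in intestinal (25059.5 against 27690.4 CPM) and 1.03 in splenic cells (60.5 against 29.6 CPM). Gzmk, compared in the same way, was at -0.27 in intestinal and 0.61 in splenic cells. Gzmb in cells with a Foxp3 UMI was at -0.86 in the small intestine (7018 against 12727 CPM, from 28 cells with Foxp3) and at 0.61 in the spleen (1399 against 919 CPM, from 280 cells). Of these Foxp3 cells 22 intestinal and 276 splenic ones were Ccl5-low. All Ccl5-low cells of the small intestine had Gzmb at 4316 CPM, below its intestinal Foxp3 cells, and the part of the Ccl5 class was not tested. Cells with an Il10 or Foxp3 UMI were deeper in both tissues. The medians were 6067 against 4460 and 7686 against 5051 UMIs in the spleen, and 3840.5 against 3307 and 4708.5 against 3687 in the small intestine. An Il10 UMI was in 56.2% of intestinal cells with Cd8a and 74.9% of those without. The part of the Cd8a cells in the intestinal ratios by Il10 was not tested.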

How the results depend on the processing

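The numbers of granule genes at least 2-fold higher (5 by tissue, 5 and 4 by Ccl5 class in small intestine and spleen, 3 by Cd8a) were the same under 45 of 46 alternatives. The exception was the comparison by Cd8a among Ccl5-high cells only, where Gzma and Gzmk fell just short of 2-fold. It has fewer cells and the Ccl5 class held fixed, and no share over all genes is given for it. Of 321 log2 ratios of single genes recomputed, 235 stayed within the counting interval, 86 moved out of it and 0 of the called ones changed sign. Among genes with at least 50 UMIs, 3 moved by more than 1.5-fold: the Gzmk ratio between the tissues was 2.68 as a mean of CPM over cells in place of 3.28, and with the Ccl5 cut doubled the intestinal ratios by Ccl5 class were 1.41 for Gzmk and 1.55 for Prf1 in place of 2.07 and 2.17. The cause was not tested. No paired analysis was possible because each group is 1 library, and for the same reason no replicate could be left out. Depth limits Gzmc (21 and 19 UMIs) and splenic Prf1 (30 UMIs), of which no absence can be read.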
